A study of Mus musculus with 6 samples.

Results

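10 genes of the canonical WNT pathway were followed through a block of protein synthesis in mouse embryonic stem cells. They were chosen by symbol: 5 targets that feed back on the pathway or act downstream of it (Axin2, Sp5, Nkd1, Znrf3 and Rnf43), the 4 TCF/LEF DNA-binding factors (Tcf7, Tcf7l1, Tcf7l2 and Lef1) and Ctnnb1, which encodes beta-catenin. All 10 were among the 17484 genes of the count files, and 8 passed the filter on low counts; Lef1 and Rnf43 did not. The cells were E14, a pluripotent line of 129/Ola background, grown in serum and leukaemia inhibitory factor, and treatment began 24 h after they were seeded. Control cells were exposed to ethanol alone for 9 h, and the treated cells to 250 µg/mL cycloheximide in 0.007% ethanol for 3 h or for 6 h. Control cells therefore also had a longer exposure than either treated group, and the drug and the hours of exposure cannot be told apart. Each group had 2 bulk RNA-seq libraries of polyadenylated RNA.

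Cycloheximide stops the elongation step of translation, so that proteins with a short life are lost while transcription can go on. In WNT signalling, a ligand binds a Frizzled receptor with an LRP coreceptor, the AXIN/APC/GSK3 destruction complex is held back, and beta-catenin accumulates and joins TCF/LEF factors at target genes. In embryonic stem cells TCF7L1 is the TCF factor best known as a repressor, and its loss or its relief by beta-catenin favours self-renewal. Several targets are brakes: AXIN2 rebuilds the destruction complex, NKD1 binds Dishevelled, and the ubiquitin ligases ZNRF3 and RNF43 remove Frizzled receptors from the cell surface.

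The libraries held between 9385447 and 27351077 counts over genes, and the 6 h libraries were the deepest. Replicates were separate libraries by their labels, but nothing states that they came from separate cultures, so the p-values measure the spread between these libraries. Mitochondrial transcripts took 24.7% and 24.9% of counts in the controls, 19.6% and 18.9% after 3 h, and 17.4% and 16.6% after 6 h. The 10 embryonic stem cell markers were all detected, with summed levels of 6583 to 6700 CPM (counts relative to a fixed library total) in control, 7456 to 7584 at 3 h and 5096 to 5335 at 6 h. Sox2 carried the higher sum at 3 h (2441 CPM on average in control, 3901 at 3 h; adjusted p = 0.00841) and was the 1 marker of the list called there; the list's median log2 change was -0.18 at 3 h and -0.35 at 6 h, with 4 of 10 called lower at 6 h. The 8 primitive endoderm markers summed to 86.3 to 91.7 CPM in control, 88.9 to 92.9 at 3 h and 43.3 to 48.3 at 6 h, and none was at 0. The lower sum at 6 h came from Sox7 (41.0 CPM on average in control, 5.34 at 6 h; adjusted p = 0.000104) and Lama1 (41.1 and 26.6; adjusted p = 0.0342), while the other 6 markers, at most 4.77 CPM on average at 6 h, had higher means than in control and were not called. The list's median log2 change was 1.28 at 3 h and 0.79 at 6 h. The 6 neuroectoderm markers summed to 63.4 to 80.0, 96.3 to 119.8 and 70.8 to 84.8 CPM, with Neurog2 at 0 in control. Sox1 made up most of each sum (67.0, 100 and 64.0 CPM on average). The list's median log2 change was 0.58 at 3 h and 1.05 at 6 h. Of its 5 tested genes, 1 was called at 6 h, Nes (2.79 CPM on average in control, 9.57 at 6 h; adjusted p = 0.00733). The mesendoderm, trophectoderm and fibroblast lists summed to between 4.71 and 18.0 CPM in every library, with Krt7, Col1a2 and Dcn at 0 in control. The trophectoderm sum was 11.4 to 13.0 CPM in control and 17.8 to 18.0 at 6 h, when Tfap2c was called higher (adjusted p = 0.0119). Of the fibroblast list, Pdgfrb was called higher at 6 h (adjusted p = 0.0370). With 1 and 3 counts in the controls, Pdgfrb passed the filter on low counts through treated libraries in which it is high. The part of these marker levels in the results below was not tested, and in bulk RNA fewer cells of a type cannot be told apart from less RNA per cell.

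Levels below are CPM after TMM scaling, a method that sets library sizes by the bulk of genes, and changes are log2 fold changes from edgeR with their standard errors (SE), n = 2 libraries per group. A gene is called changed when its p-value, adjusted over all 12755 genes tested, was under 0.05. None of the 8 tested members was called after 3 h, when 4.9% of all genes were. After 6 h, 2 were called, Tcf7l1 higher and Ctnnb1 lower, when 29% of all genes were, 14.8% higher and 14.3% lower. The share of members called thus lay near the background. Between 6 h and 3 h none was called, when 1.64% of all genes were. Before adjustment, edgeR gave p under 0.05 for 1 of 8 members at 3 h (Tcf7; 24.7% of all genes), 3 at 6 h (Ctnnb1, Tcf7l1 and Tcf7l2; 41.4%) and 5 in 6 h against 3 h (Axin2, Ctnnb1, Tcf7l1, Tcf7l2 and Znrf3; 18.1%). In the comparisons with no call, 3 h against control and 6 h against 3 h, DESeq2 gave 2 and 4 members and limma-voom 1 and 5, and neither called any of them. The libraries of both groups did not overlap for 4 of 8 members at 3 h against control (53.2% of all genes), 6 of 8 at 6 h against control (66.8%) and 7 of 8 at 6 h against 3 h (54.1%). The median log2 change of the 8 members was 0.07, -0.36 and -0.31 in these comparisons, against 0.02, 0.04 and 0.01 over all genes.

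**Figure D1:**
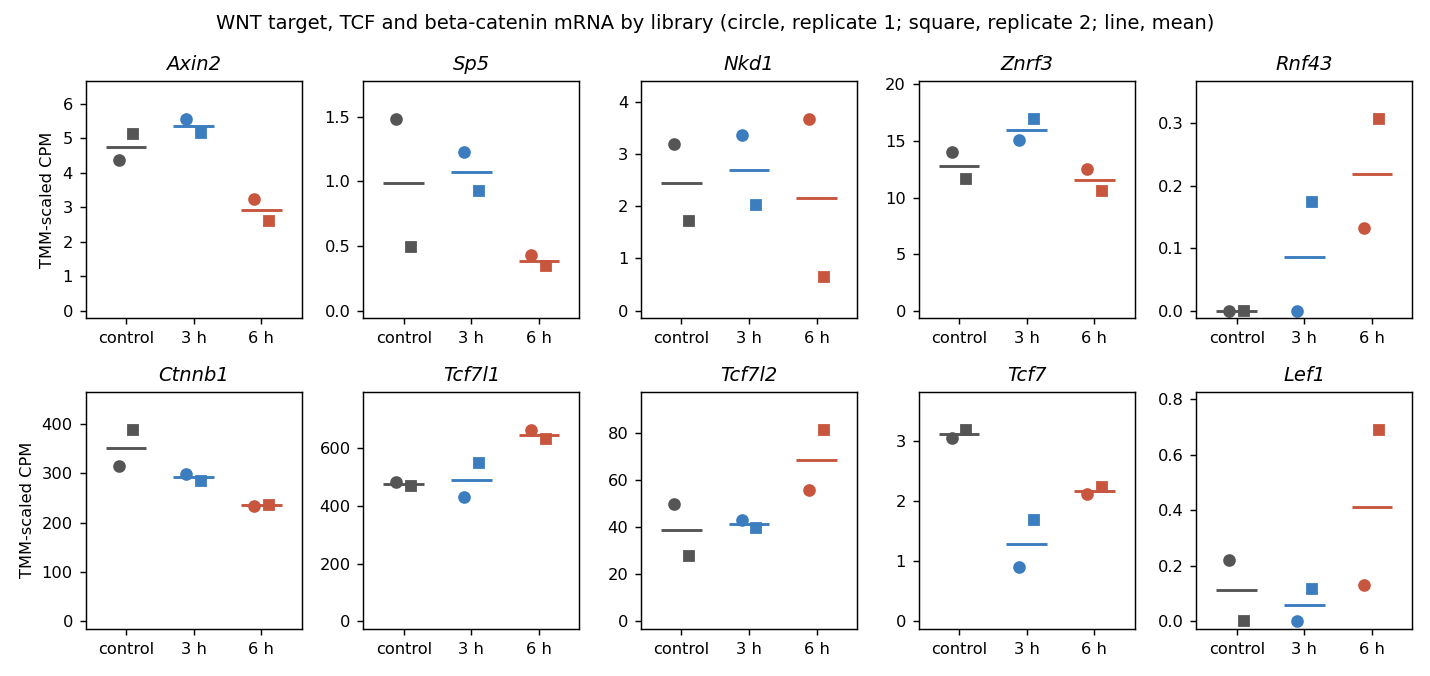
TMM-scaled CPM (vertical axes, each gene on its own scale from 0) of the 10 members in control, 3 h and 6 h libraries; circles are replicate 1, squares replicate 2 and lines the group mean. Tcf7l1 lies at 630 and 662 CPM at 6 h, above all 4 other libraries, and Ctnnb1 at 234 and 237, below all 4 others.

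Ctnnb1 and the TCF factors held the called members. Ctnnb1 encodes beta-catenin, both the transducer of the pathway and a structural part of cell junctions, and it lies at chr9:120929216-120960507 on the plus strand of mm10 (GRCm38). It measured 315 and 388 CPM in the controls, 299 and 285 after 3 h, and 234 and 237 after 6 h. The levels stepped down with each group and no groups overlapped. The log2 change was -0.27 ± 0.12 (SE) at 3 h (adjusted p = 0.214) and -0.58 ± 0.12 at 6 h, a 1.49-fold lower level (adjusted p = 0.00981). At 6 h the call was lost without replicate 1 of that group (adjusted p = 0.0580) or replicate 2 (adjusted p = 0.0611), and with scaling by library size alone (log2 change -0.22, adjusted p = 0.188). It was also lost in the test against a 1.5-fold change, which asks a different question from a test against no change. Over the 12 alternative analyses other than leaving out 1 library, that test among them, adjusted p for Ctnnb1 at 6 h ran from 0.000151 to 0.740. Ulk4 overlaps Ctnnb1 on the opposite strand and the strand setting of the counts is not given in the sources used here. Ulk4 itself had 4 to 13 counts per library beside 3175 to 7104 for Ctnnb1.

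Tcf7l1 encodes the repressor TCF of these cells and spans chr6:72626378-72789254 on the minus strand. Its level was 483 and 470 CPM in the controls, 432 and 549 after 3 h, and 662 and 630 after 6 h. The 3 h libraries bracketed the controls, and both 6 h libraries lay above all others. The change was 0.04 ± 0.13 at 3 h (adjusted p = 0.872). At 6 h it was 0.44 ± 0.13, a 1.36-fold rise (adjusted p = 0.0307). The call was lost without any 1 of the 4 compared libraries: leaving out either control or either 6 h library gave changes of 0.40 to 0.48 with adjusted p of 0.0547 to 0.135. It held in 11 of the 12 other alternative analyses and was lost in a test against a 1.5-fold change. With mitochondrial genes removed before scaling, the calls of Tcf7l1 and Ctnnb1 both held. The step from 3 h to 6 h was 0.40 ± 0.13 (adjusted p = 0.147), so a difference between the exposure times was not called. Gm15401, on the opposite strand within Tcf7l1, had 2 to 9 counts per library beside 3847 to 20083 for Tcf7l1.

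Tcf7l2 (chr19:55741820-55933654, plus strand) encodes the TCF factor that serves as a main partner of beta-catenin in many epithelia. It measured 49.8 and 27.8 CPM in the controls, 42.9 and 39.8 after 3 h, and 56.0 and 81.3 after 6 h. Both 6 h libraries were the highest, and the controls were far apart, and the change of 0.81 ± 0.27 did not pass the test (adjusted p = 0.0521). With control replicate 1 left out the change was 1.30 (adjusted p = 0.00635), and over the other single libraries left out it ranged down to 0.47. In 7 of 12 alternative analyses the gene was called at 6 h, among them limma-voom (adjusted p = 0.0465) and DESeq2 (adjusted p = 0.0181), with the 12 values between 4.02e-05 and 0.382. The 12 include the test against a 1.5-fold change. At 3 h the change was 0.08 ± 0.27 (adjusted p = 0.890).

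**Figure D2:**
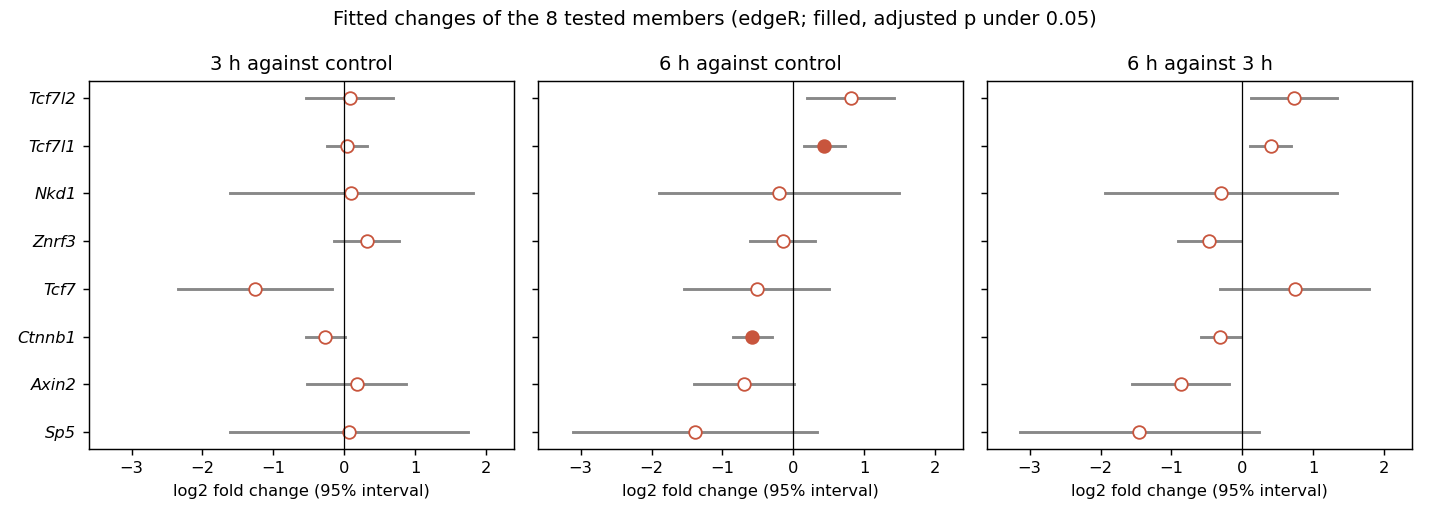
Fitted log2 fold changes (horizontal axis) of the 8 tested members with 95% intervals in the 3 comparisons; filled points have an adjusted p under 0.05. Only Tcf7l1 (0.44) and Ctnnb1 (-0.58) are filled, both at 6 h against control, and the intervals of Sp5 and Nkd1 are the widest of the 8.

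Because both genes come from the same library, the ratio of Tcf7l1 to Ctnnb1 counts needs no scaling between libraries. It was 1.53 and 1.21 in the controls, 1.44 and 1.93 after 3 h, and 2.83 and 2.66 after 6 h. Both 6 h ratios exceeded every other library, while control and 3 h overlapped. These 2 genes were the members called at 6 h, in opposite directions. That the 6 h ratios were highest follows from those levels and is no separate support for the calls. The ratio of Tcf7l2 to Ctnnb1 counts was 0.158 and 0.0718 in the controls, 0.144 and 0.140 after 3 h, and 0.239 and 0.343 after 6 h. It too was highest in both 6 h libraries, which again follows from the levels of both genes. A ratio of this kind shows that the mRNAs changed unequally and not which of them moved, and its size depends on transcript length.

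**Figure D3:**
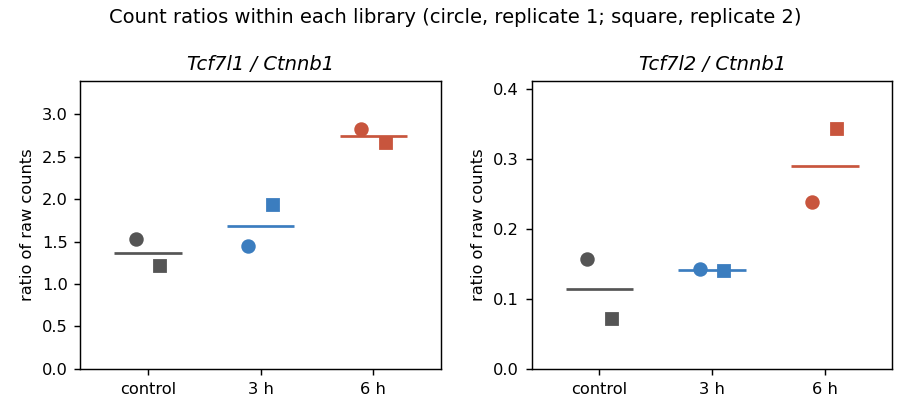
Ratios of raw counts within each library (vertical axes, from 0) of Tcf7l1 to Ctnnb1 and of Tcf7l2 to Ctnnb1; circles are replicate 1, squares replicate 2 and lines the group mean. The Tcf7l1 ratio lies at 2.66 and 2.83 at 6 h and at or below 1.93 in the 4 other libraries.

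The other TCF/LEF factors were sparse. Tcf7 (chr11:52252371-52283014, minus strand), which encodes TCF1, a factor that commonly acts as an activator with beta-catenin, gave 41 and 26 counts in the controls, 14 and 29 after 3 h, and 64 and 58 after 6 h. In CPM these were 3.04 and 3.18, 0.904 and 1.67, and 2.11 and 2.22. Both 3 h libraries were the lowest and the 6 h libraries lay between them and the controls. The change at 3 h was -1.26 ± 0.48 (adjusted p = 0.149), with a 95% interval of -2.34 to -0.17. At 6 h it was -0.52 ± 0.45 (adjusted p = 0.424). Lef1 (chr3:131110471-131224356, plus strand), which encodes a TCF-family factor induced in differentiating cells, had 3 and 0 counts in the controls, 0 and 2 after 3 h, and 4 and 18 after 6 h. Most of the 6 h counts came from replicate 2. Summed over both libraries, the 6 h level was 2.82 times that of control, with an exact 95% interval of 0.847 to 14.7 that covers counting error only. Against 3 h, with 2 counts there, the ratio was 6.40, with an interval of 1.57 to 56.1 of the same kind. In edgeR with no filter on low counts, that step had an adjusted p of 0.548.

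The promoters of the called members were read from the RefSeq table for GRCm38.p6, which gives 250 bases before to 50 bases after a start site, 300 in all, and held 16 such windows for 9 of the 10 members. They were searched on both strands for the TCF/LEF core words CTTTGAT and CTTTGAA and for the GC box GGGCGG, the site of Sp-family factors such as SP5. Matches on opposite strands can share bases at their ends. A TCF word occurred in 1 of the 16 windows, that of Sp5, and in 8.65% of all 32851 promoters in the table. A GC box occurred in 10 of the 16 and in 35.7% of all promoters. Windows of Lef1 and of Ctnnb1 overlap and share boxes, so the 16 windows are not independent. The windows of Tcf7l1 (chr6:72788996-72789295, minus strand) and Ctnnb1 (chr9:120933150-120933449, plus strand, the first of its windows) are shown because these genes were called; capitals mark GC boxes read on either strand, 2 in Tcf7l1 and 3 in Ctnnb1.
Tcf7l1: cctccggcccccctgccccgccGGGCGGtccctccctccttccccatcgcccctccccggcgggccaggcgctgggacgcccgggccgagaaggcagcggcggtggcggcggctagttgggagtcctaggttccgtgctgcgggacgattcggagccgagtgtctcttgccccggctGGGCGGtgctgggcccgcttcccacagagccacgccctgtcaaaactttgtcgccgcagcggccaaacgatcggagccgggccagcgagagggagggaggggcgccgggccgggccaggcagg
Ctnnb1: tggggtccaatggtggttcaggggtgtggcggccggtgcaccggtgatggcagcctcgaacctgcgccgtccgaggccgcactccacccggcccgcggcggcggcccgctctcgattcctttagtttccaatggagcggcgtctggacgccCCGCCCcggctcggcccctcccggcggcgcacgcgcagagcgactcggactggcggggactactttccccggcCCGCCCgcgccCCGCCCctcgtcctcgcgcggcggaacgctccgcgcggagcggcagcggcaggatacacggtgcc

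Of the targets, Axin2 is the one most often used as a readout of beta-catenin activity, and Sp5 encodes a zinc finger repressor induced by WNT. Axin2 (chr11:108920349-108950783, plus strand) measured 4.37 and 5.13 CPM in the controls, 5.55 and 5.14 after 3 h, and 3.23 and 2.61 after 6 h, from 42 to 98 counts per library. Both 3 h libraries lay above the controls and both 6 h libraries below them, although the second control (5.13) and the second 3 h library (5.14) were nearly level. The change was 0.18 ± 0.31 at 3 h (adjusted p = 0.766) and -0.69 ± 0.31 at 6 h (adjusted p = 0.126). The direct comparison of 6 h with 3 h gave -0.87 ± 0.30 (adjusted p = 0.177), with a 95% interval of -1.55 to -0.19. Axin2 was not called in any of the 12 alternative analyses of these comparisons, and with library size alone its change at 6 h was -0.34.

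Sp5 (chr2:70474923-70477729, plus strand) rested on 4 to 20 counts per library. Its level was 1.48 and 0.488 CPM in the controls, 1.23 and 0.924 after 3 h, and 0.429 and 0.345 after 6 h. The 6 h libraries were the lowest, but control replicate 2 lay close to them. The change at 6 h was -1.39 ± 0.76 (adjusted p = 0.203). It was -0.33 without control replicate 1 and -1.91 without control replicate 2, so these controls set its size. At 3 h the change was 0.07 ± 0.74 (adjusted p = 0.968).

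The promoters of these targets differed in base composition. That of Sp5 (chr2:70474673-70474972, plus strand) was 45% G and C and held the TCF word CTTTGAT, in capitals, with its first base 104 bases before the start site. That of Axin2 (chr11:108920099-108920398, plus strand) was 70% G and C, with 2 GC boxes in capitals and no TCF word. They are shown because Sp5 holds the single TCF word found among the members and Axin2, the reference target, holds none in this window. A match in letters is not a measured binding site, and a missing one says nothing of sites elsewhere in the gene.
Sp5: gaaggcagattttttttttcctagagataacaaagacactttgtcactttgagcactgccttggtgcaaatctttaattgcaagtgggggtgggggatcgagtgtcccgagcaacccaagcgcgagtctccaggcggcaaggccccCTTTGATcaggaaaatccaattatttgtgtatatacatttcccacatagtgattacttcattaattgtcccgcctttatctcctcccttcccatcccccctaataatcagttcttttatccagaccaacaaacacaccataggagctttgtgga
Axin2: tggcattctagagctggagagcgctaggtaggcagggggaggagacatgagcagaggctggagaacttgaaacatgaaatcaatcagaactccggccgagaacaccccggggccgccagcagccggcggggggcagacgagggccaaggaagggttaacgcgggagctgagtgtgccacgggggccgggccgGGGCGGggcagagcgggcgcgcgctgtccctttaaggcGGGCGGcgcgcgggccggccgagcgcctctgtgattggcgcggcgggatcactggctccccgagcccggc

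Nkd1 (chr8:88521354-88594884, plus strand), the Dishevelled-binding brake, had, with Sp5, the largest standard errors of the tested members. It was at 3.18 and 1.71 CPM in the controls, 3.36 and 2.02 after 3 h, and 3.66 and 0.651 after 6 h. The 6 h libraries held both the highest and the lowest level. Its changes were 0.10 ± 0.75, -0.20 ± 0.74 and, for 6 h against 3 h, -0.30 ± 0.72 (adjusted p = 0.953, 0.866 and 0.863). The change at 6 h ran from -1.92 without replicate 1 of that group to 0.55 without replicate 2, and turned to 0.15 with library size alone.

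Znrf3 and Rnf43 encode the paired ubiquitin ligases that clear Frizzled receptors. Znrf3 (chr11:5276324-5444847, minus strand) measured 14.0 and 11.6 CPM in the controls, 15.1 and 16.9 after 3 h, and 12.6 and 10.6 after 6 h. The 3 h libraries were above both other groups, and control and 6 h overlapped. Its change was 0.32 ± 0.20 at 3 h (adjusted p = 0.365) and -0.47 ± 0.19 from 3 h to 6 h (adjusted p = 0.252). At 6 h against control it was -0.15 ± 0.20 (adjusted p = 0.611), with a 95% interval of -0.60 to 0.31, and 0.21 with library size alone. Rnf43 (chr11:87662722-87735539, plus strand) had 0 and 0 counts in the controls, 0 and 3 after 3 h, and 4 and 8 after 6 h. Its 6 h level of 0.213 CPM was 1.54 times the control group's floor of 0.138 CPM, the level of 3 counts over both control libraries. The exact 95% intervals were 0.110 to 0.372 CPM at 6 h and 0 to 0.170 CPM in control. They overlap and cover counting error only. The 6 h libraries were also the deepest, and the fit with no filter on low counts gave Rnf43 an adjusted p of 0.310 at 6 h.

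The 3′ UTRs of the members were searched for the AU-rich word TATTTAT, the core of elements that mark many short-lived mRNAs. It was found in 5 of 10 members (Rnf43, Axin2, Znrf3, Tcf7l2 and Nkd1) and in 28.4% of the 11574 tested genes that have a 3′ UTR in the GENCODE M21 annotation. Of the 8 tested members, 4 held it. Longer UTRs offer more places for a match: those of the 5 members with the word are 1342 to 3403 bases long and those of Ctnnb1, Tcf7l1, Tcf7, Lef1 and Sp5, which lack it, 563 to 1515, beside a median of 1015 over the tested genes. The sites of Axin2 (chr11:108949624-108949644 and chr11:108949775-108949795, plus strand), Nkd1 (chr8:88592312-88592332, plus strand), the first of Znrf3 (chr11:5276542-5276562, minus strand) and Tcf7l2 (chr19:55932536-55932556, plus strand) are shown as DNA with 7 flanking bases on each side and the word in capitals, since these are the tested members that hold one. No decay rate was measured here, and the members with the word did not share a direction.
Axin2 site 1: cctgaacTATTTATtcaaaac
Axin2 site 2: ttactgaTATTTATtgaacag
Nkd1: aaactttTATTTATacgttgt
Znrf3 site 1: ctcagaaTATTTATttactaa
Tcf7l2: ccagtagTATTTATtgcttta

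The genes whose levels ran most like those of 3 members were taken from 8458 genes of at least 5 CPM, by the root mean square difference of log2 CPM, centred on the control mean, over the 6 libraries. Among those nearest to Axin2 were Slc38a7 (0.0683) and Ccm2 (0.117). Slc38a7 was at 42.8 and 55.6 CPM in the controls, 54.2 and 52.1 after 3 h, and 36.1 and 27.7 after 6 h. Nearest to Sp5 were H2-M5 (0.110), Slc6a6 (0.219) and Camkk2 (0.256), each with a wide gap between its controls, as in Sp5; H2-M5 was at 9.63 and 3.91 CPM there. Nearest to Tcf7l1 were Rprd1b (0.0620), Zfp932 (0.0670) and Ccdc91 (0.0671), whose log2 changes at 6 h were 0.45, 0.42 and 0.46. In edgeR these 3 were not called at 6 h (adjusted p = 0.0529, 0.135 and 0.163). All these genes were picked for likeness over the same 6 libraries, so alike changes follow from the choice and are no separate support.

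Beyond the members, 128 further genes of the pathway were listed by role, of which 124 were in the files and 96 were tested. At 3 h, 6 were called higher and 5 lower, which is 11.5% of those tested beside 4.9% of all genes. At 6 h, 13 were called higher and 20 lower, or 34.4% beside 29%, which is near the background. From 3 h to 6 h, 5 were called lower and 0 higher, or 5.21% beside 1.64%. Most calls over all genes in this comparison were lower too. The median log2 change of the 96 genes was 0.08, -0.02 and -0.10 in these comparisons. The lists were written with earlier results of these data known, so the shares called are not independent of the data. Of the 33 calls at 6 h, 17 held in each of the 4 fits that left out 1 of the compared libraries; of the 11 calls at 3 h, 2 did (Id2 and Tfcp2l1), and of the 5 between the exposure times, 1 did (Gbx2). With library size alone, 26 of the 33 and 7 of the 11 calls held in the same direction, and in the test against a 1.5-fold change 12 and 2 did.

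**Figure D4:**
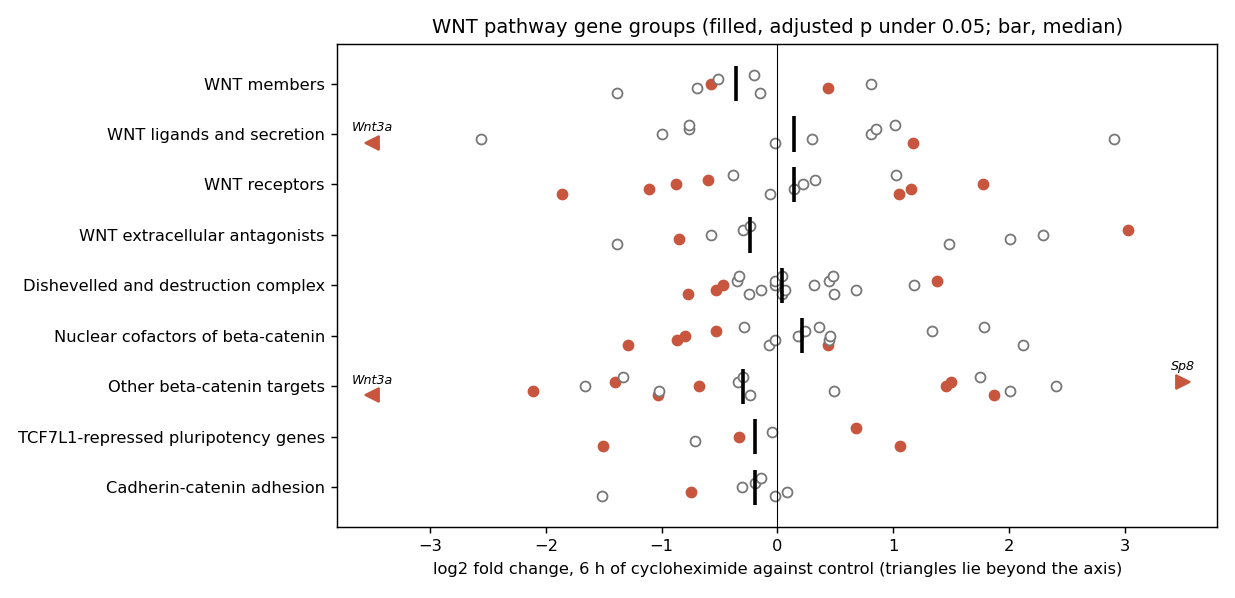
Log2 fold change at 6 h against control (horizontal axis) of each tested gene by pathway group; filled points have an adjusted p under 0.05, bars are group medians, and triangles are genes beyond the axis (Wnt3a, with 0 counts at 6 h, stands in both the ligand and the target group; Sp8 had 1 count in control). Called genes lie on both sides of 0 in most groups, and the receptors hold 3 higher and 4 lower.

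Ligands and their secretion factors gave 1 gene higher and 1 lower of 12 tested at 6 h, and 0 in either direction at 3 h. Wnt3a, a canonical ligand and itself on the target list, gave 45 and 33 counts in the controls, 26 and 27 after 3 h, and 0 and 0 after 6 h. Levels were 3.33 and 4.03 CPM in control and 1.68 and 1.56 at 3 h. The mRNA was thus not detected in the deepest libraries, at least 67.6-fold lower than control and at least 30.4-fold lower than at 3 h, against a floor of 3 counts over both 6 h libraries. In edgeR these falls had adjusted p of 0.00117 and 0.0150; the latter rose to at most 0.115 when a library was left out, while the former held. Wnt3a passed the filter on low counts through the control and 3 h libraries in which it is high. Wls, which carries WNT proteins to the cell surface, went from 4.30 and 4.64 CPM in control to 10.1 and 9.92 at 6 h, a rise of 1.17 ± 0.26 (adjusted p = 0.0122). It lost its call without either 6 h library (adjusted p up to 0.0692).

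Receptors gave 3 genes higher and 4 lower of 13 tested at 6 h, and 1 higher at 3 h. Lgr4, the R-spondin receptor that restrains ZNRF3 and RNF43, was at 53.7 and 73.8 CPM in the controls, 36.4 and 43.3 after 3 h, and 17.8 and 17.2 after 6 h. Its groups stepped down without overlap, with a change of -1.86 ± 0.19 at 6 h (adjusted p = 0.000499). Fzd5, a Frizzled receptor, was at 77.8 and 82.9 CPM in control and at 81.2 and 86.6 at 3 h, which overlap, and at 35.3 and 39.4 at 6 h. Its change was -1.11 ± 0.13 at 6 h (adjusted p = 0.00105) and -1.17 ± 0.13 from 3 h to 6 h (adjusted p = 0.00560). The step from 3 h to 6 h was also called for Lgr4 (-1.19 ± 0.18, adjusted p = 0.0211), and both steps lost their call when any 1 of the 4 compared libraries was left out, with adjusted p up to 0.211 for Lgr4 and 0.0854 for Fzd5.

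Fzd7, the Frizzled receptor best known in stem cells, fell by 0.87 on the log2 scale at 6 h (adjusted p = 0.00664). The coreceptor gene Lrp6 fell by 0.60 (adjusted p = 0.0344), a call lost without control replicate 2 or either 6 h library (adjusted p up to 0.168) and with library size alone. Fzd8 and Fzd2 rose. Fzd8 was at 2.30 and 0.366 CPM in the controls, 8.33 and 7.68 after 3 h, and 4.88 and 5.13 after 6 h, with changes of 2.45 ± 0.53 (adjusted p = 0.0399) and 1.77 ± 0.53 (adjusted p = 0.0368). Its controls were far apart, and with 1 compared library left out the changes ran from 1.80 to 4.42 and from 1.13 to 3.75. With 31 and 3 counts in the controls, Fzd8 passed the filter on low counts only with treated libraries in which it is high. Its calls are therefore not independent of that filter. Fzd2 changed by 1.15 ± 0.28 at 6 h (adjusted p = 0.0176). The calls of Fzd8 and Fzd2 were lost when a treated library of the comparison was left out, with adjusted p up to 0.160 for Fzd8 and 0.0890 for Fzd2.

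**Figure D5:**
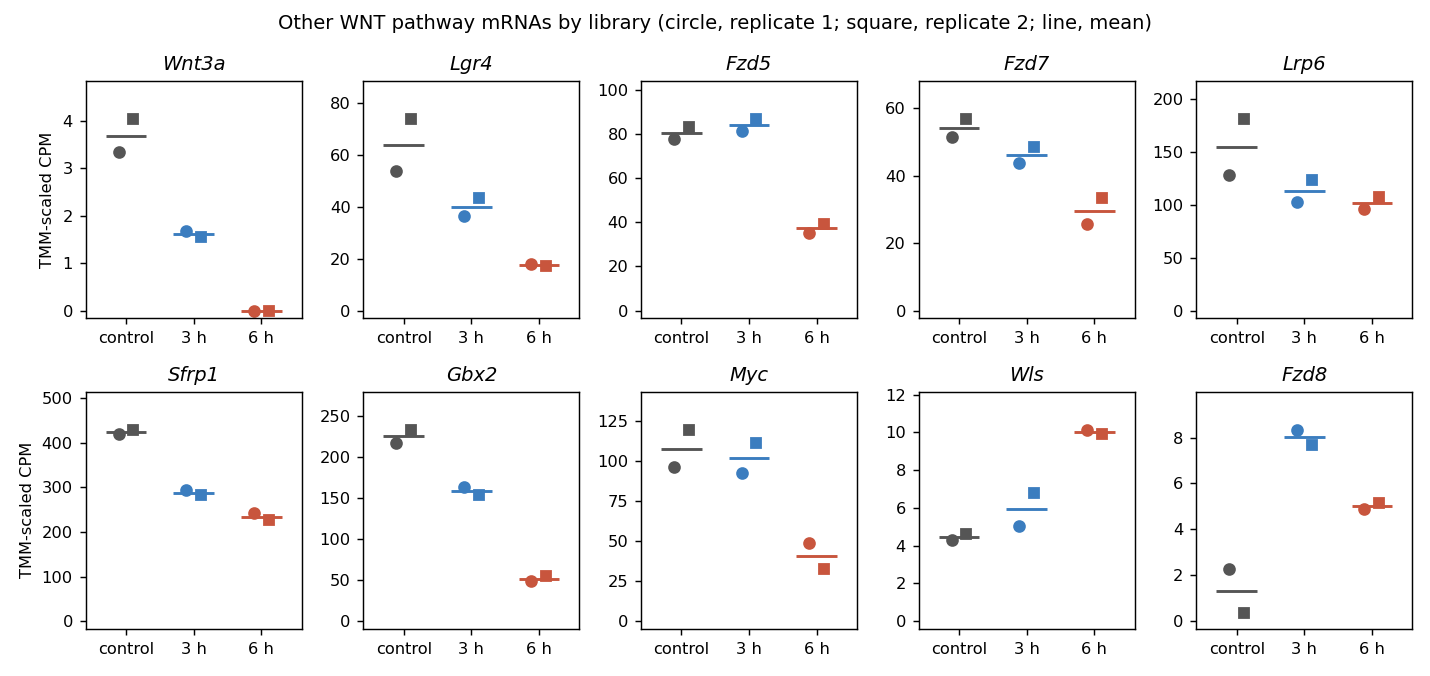
TMM-scaled CPM (vertical axes, each gene on its own scale from 0) of 10 named pathway genes outside the members; circles are replicate 1, squares replicate 2 and lines the group mean. Wnt3a falls from 3.33 and 4.03 CPM to 0 in both 6 h libraries, Fzd5 and Myc fall between 3 h and 6 h, and Wls and Fzd8 lie above control at 6 h.

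Of 9 secreted antagonists tested, 1 was higher and 1 lower at both times. Sfrp1, a decoy that binds WNT proteins, was at 419 and 428 CPM in the controls, 293 and 282 after 3 h, and 242 and 227 after 6 h, with changes of -0.56 ± 0.10 (adjusted p = 0.0212) and -0.85 ± 0.10 (adjusted p = 0.00104). Sfrp4, of the same family, rose by 2.27 ± 0.43 (adjusted p = 0.0251) and 3.03 ± 0.42 (adjusted p = 0.00212), from 0.741 and 0.488 CPM in control to 5.01 and 5.44 at 6 h. Sfrp4 had 10 and 4 counts in the controls. It passed the filter on low counts through the treated libraries in which it is high. Its calls are therefore not independent of that filter. The measured levels of Sfrp1 and Sfrp4 moved in opposite directions. Both calls at 6 h held without any 1 compared library, and both at 3 h were lost when either 3 h library was left out, that of Sfrp4 also without control replicate 2 (adjusted p up to 0.156 for Sfrp1 and 0.118 for Sfrp4).

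The Dishevelled and destruction complex group gave 1 gene higher and 3 lower of 19 at 6 h, and 1 lower at 3 h. Axin1, Apc and Gsk3b, 3 core genes of the complex, were not called: at 6 h Axin1 changed by -0.14 ± 0.18 (adjusted p = 0.591), Apc by 0.06 ± 0.16 (adjusted p = 0.796) and Gsk3b by 0.48 ± 0.29 (adjusted p = 0.244). Tnks2, a tankyrase that marks AXIN for destruction, fell by 0.48 at 3 h (adjusted p = 0.0480) and by 0.77 at 6 h (adjusted p = 0.00247). Rnf146, the ubiquitin ligase that reads the tankyrase mark, rose by 1.38 ± 0.37 at 6 h (adjusted p = 0.0236). Gsk3a, which encodes the other GSK3 kinase, fell by 0.53 (adjusted p = 0.0463). The casein kinase gene Csnk1d, named here after its values were seen, fell by 0.47 (adjusted p = 0.0235). The call of Csnk1d did not hold in each fit that left out 1 of the compared libraries. The calls of Rnf146 and Gsk3a, and that of Tnks2 at 3 h, were each lost without a control library or either treated library compared, with adjusted p up to 0.119, 0.219 and 0.211.

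Nuclear cofactors gave 1 gene higher and 4 lower of 16 at 6 h and none at 3 h. Ctbp1, a corepressor, fell by 0.86 (adjusted p = 0.00264), and its call held without any 1 compared library. The Groucho-type corepressors Tle1 and Tle4, which bind TCF factors in the absence of beta-catenin, were called in opposite directions, at -1.29 ± 0.34 (adjusted p = 0.0231) and 0.44 ± 0.13 (adjusted p = 0.0357). The calls of Tle1 and Tle4 were lost without 1 of the controls or without 6 h replicate 2, and that of Tle4 also without 6 h replicate 1, with adjusted p up to 0.143 and 0.166.

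Other beta-catenin targets gave 4 genes higher and 5 lower of 19 at 6 h, and 2 in each direction at 3 h. Myc, a growth regulator, was at 96.3 and 120 CPM in the controls, 93.0 and 112 after 3 h, and 48.7 and 32.8 after 6 h. The controls and 3 h libraries overlapped and the 6 h libraries were far below both, with changes of -1.40 ± 0.21 against control (adjusted p = 0.00269) and -1.33 ± 0.21 against 3 h (adjusted p = 0.0212). Gbx2, a homeobox gene tied to self-renewal, was at 217 and 233 CPM in the controls, 164 and 154 after 3 h, and 48.9 and 54.9 after 6 h. Its groups did not overlap, and its falls of -0.50 ± 0.12 (adjusted p = 0.0484), -2.11 ± 0.12 (adjusted p = 4.1e-05) and, from 3 h to 6 h, -1.62 ± 0.12 (adjusted p = 0.000988) passed the test in all 3 comparisons. The 3 h call of Gbx2 was lost without control replicate 2 or either 3 h library (adjusted p up to 0.245), and the 6 h against 3 h call of Myc without either 3 h library or 6 h replicate 2 (adjusted p up to 0.180).

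Bmp4, a signalling ligand, fell by 0.62 at 3 h (adjusted p = 0.0224) and 1.03 at 6 h (adjusted p = 0.000773), and Ccnd1, which encodes cyclin D1, fell by 0.68 at 6 h (adjusted p = 0.0257). Id2, an inhibitor of helix-loop-helix factors, was at 36.1 and 44.1 CPM in the controls, 119 and 125 after 3 h, and 144 and 149 after 6 h. It rose by 1.61 ± 0.14 (adjusted p = 0.000517) and 1.87 ± 0.14 (adjusted p = 0.000104). Fst, which encodes the activin antagonist follistatin, was at 6.96 and 4.03 CPM in control, 13.5 and 15.6 at 3 h (adjusted p = 0.0303), and 14.3 and 17.5 at 6 h (adjusted p = 0.00563). Sp8, a zinc finger gene related to Sp5, had 1 and 0 counts in the controls, 14 and 4 after 3 h, and 78 and 48 after 6 h, a ratio of 48.4 between 6 h and control with an exact interval of 8.54 to 1928 for counting error. Sp8 passed the filter on low counts through the treated libraries in which it is high, so its call is not independent of that filter. The call at 6 h (adjusted p = 0.00986) was lost without 6 h replicate 1 (adjusted p = 0.0652), that of Ccnd1 without control replicate 1 or either 6 h library (up to 0.140), and those of Bmp4 and Fst at 3 h without control replicate 2 or either 3 h library (up to 0.155 and 0.162).

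Of 6 pluripotency genes that TCF7L1 is known to repress, 2 were called higher and 1 lower at 3 h, and 2 in each direction at 6 h. Klf2, a naive pluripotency factor, was at 267 and 272 CPM in the controls, 530 and 555 after 3 h, and 425 and 699 after 6 h, with rises of 1.01 ± 0.20 (adjusted p = 0.0286) and 1.06 ± 0.20 (adjusted p = 0.00648). Tfcp2l1, a factor of the same network, was at 162 and 170 CPM in the controls, 80.6 and 69.1 after 3 h, and 55.1 and 61.4 after 6 h, with falls of -1.15 ± 0.13 (adjusted p = 0.00302) and -1.51 ± 0.13 (adjusted p = 0.000265). Tbx3 rose by 0.87 ± 0.17 (adjusted p = 0.0267) and 0.68 ± 0.17 (adjusted p = 0.0190). Esrrb changed by -0.05 ± 0.11 and Nanog by -0.71 ± 0.43 at 6 h, without passing the test (adjusted p = 0.762 and 0.244). Nr0b1 passed at 6 h with -0.33 ± 0.10 (adjusted p = 0.0449), lost that call without any 1 of the compared libraries (adjusted p up to 0.257), and its sign turned with library size alone. The 3 h calls of Klf2 and the calls of Tbx3 at both times were lost without control replicate 2 or either treated library compared (adjusted p up to 0.153 and 0.172).

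In the adhesion group, where beta-catenin has its other role, 1 gene of 7 was called at 6 h, Ctnnd1, and none at 3 h. Ctnnd1, which encodes p120-catenin, was at 254 and 308 CPM in the controls, 212 and 216 after 3 h, and 168 and 167 after 6 h, a fall of -0.75 ± 0.12 at 6 h (adjusted p = 0.00366). Cdh1, which encodes the E-cadherin that binds both catenins, changed by -0.02 ± 0.16 at 6 h (adjusted p = 0.930), with levels of 104 and 122 CPM in control and 96.8 and 125 at 6 h.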

How the data were processed

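The authors deposited 1 file per library of whole-number counts per gene, not normalized; the libraries were made from polyadenylated RNA and sequenced together, per the labels. The genome build was mm10 per the submitters' processing notes; aligner, counter, annotation, strand and molecular identifiers are not given in the sources used here. A row for eGFP, at most 7.31e-06% of a library, was left out of totals and tests. Groups came from the sample titles.

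edgeR 4.0.16 (R 4.3.3) was run on the counts with TMM scaling (trimming 30% and 5%). Genes were kept by its filter by group (minimum count 10, total 15), which left 12755. A quasi-likelihood fit with a mean per group over all 6 libraries (3 residual degrees of freedom) was tested two-sided, with Benjamini-Hochberg adjustment over all genes tested. The script was tested on simulated data. A floor of 3 counts and exact 95% Poisson intervals cover counting error only. Members and lists were chosen with earlier results of these data known. Named were all members, the 2 called genes with the largest rise and the 2 with the largest fall in each list and comparison, 12 fixed pathway genes and, for 3 members, the 3 genes of most alike pattern (prior count 2), of which 1 is not reported here. Csnk1d, after its values were seen, and single cell type markers were named outside this rule. Other genes on a list but outside this rule are counted only.

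Deviations of same-numbered libraries from their group means correlated at 0.0942, -0.0243 and 0.0172 across genes. No shared effect of replicate number was seen, but this cannot show that the libraries were unpaired. Replicates differed beyond counting noise (chi-square per degree of freedom 18.7 to 27.7). Gene positions came from GENCODE M21 and promoters from RefSeq (GRCm38.p6); Znrf3 is named without a promoter. limma 3.58.1 (voom), DESeq2 1.42.0, other scalings and filters, a 1.5-fold test, a replicate block and leaving out each library were alternatives.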

Additional observations from a re-analysis of the deposited data

Results flagged for a closer look

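The 6 h and 3 h effects were compared directly, since both use the same controls. Over all genes 209 differed between the exposure times in edgeR (adjusted p under 0.05), and the pathway genes outside the members gave 5 of them: log2 differences of -1.17 for Fzd5, -1.62 for Gbx2, -1.19 for Lgr4 and -1.33 for Myc, and a level of Wnt3a at 6 h at least 30.4-fold lower than at 3 h. All 5 lay lower at 6 h, as did most of the 209. The call of Gbx2 alone held without any 1 of the compared libraries. Axin2 was flagged for another pattern: both 3 h libraries lay above and both 6 h libraries below the controls. The second control (5.13 CPM) and the second 3 h library (5.14 CPM) were nearly level, however. Libraries did not overlap with control for 53.2% of all genes at 3 h and 66.8% at 6 h. The direct difference of Axin2 between 6 h and 3 h, -0.87, did not pass the test (adjusted p = 0.177).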

How the results depend on the processing

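With 2 libraries per group, calls of single members were limited by the spread between libraries and, for Sp5, Tcf7, Nkd1, Lef1 and Rnf43, by low counts. After 6 h, 2 members were called; the count was 0 in a test against a 1.5-fold change and ran from 0 to 2 with 1 library left out. The count at 6 h was 3 with upper-quartile scaling, limma-voom or DESeq2. It was also 3 with no filter or a stricter filter on low counts, and with counts thinned to the smallest library total. With library size alone it stayed 2, although the call of Ctnnb1 was lost. In 6 h against 3 h the count was 2 with no filter on low counts (Tcf7l1 and Tcf7l2) in place of 0. No member was called at 3 h under any alternative, and no called member changed sign. Over all genes at 3 h, 625 calls became 1373 with library size alone, 1812 with no filter, 1437 with DESeq2, 108 with the 1.5-fold test and 218 with only the 4 libraries compared, and ran from 108 to 1033 with 1 library left out. At 6 h, 3703 became 773 with the 1.5-fold test, and ran from 1312 to 3578 with 1 library left out. For 6 h against 3 h, 209 became 1058 with no filter, 508 with limma-voom, 692 with DESeq2, 25 with the 1.5-fold test, 126 with the replicate block and 563 with only the 4 libraries compared, and ran from 14 to 595 with 1 library left out. The replicate block gave 0, 2 and 0 members, as without it. Library size alone moved the median of all genes to 0.25, 0.40 and 0.13 and the share of higher calls from 73.4% to 95.8%, 50.8% to 88.1% and 27.8% to 56.5%. The cause of these moves was not tested.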
